A study of Mus musculus with 6 samples.

Results

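The cells described here are epithelial cells of the adult mouse uterine tube in which transcripts of at least 2 of the 4 genes Slc6a2, Galntl6, Sprr1a and Kcnip4 were found in the same cell. They were taken by a fixed rule from 6 single-cell libraries: a barcode needed at least 500 unique molecular identifiers (UMIs, each standing for 1 captured transcript) and 250 genes, at least 2 UMIs of the epithelial genes Epcam, Krt7, Krt8 and Krt18 and more of these than of the stromal genes Dcn, Col1a1, Col1a2 and Col3a1, at most 2 of 8 cilia genes detected, and at least 2 of the 4 genes Slc6a2, Galntl6, Sprr1a and Kcnip4 detected. The rule took 276 of 20731 barcodes. They were 276 of the 4611 non-ciliated cells among 6183 cells that passed the epithelial gate, and the remaining 4335 non-ciliated cells served as the comparison. The 4 genes were picked from measured values of these same libraries, so every difference between these cells and the other epithelium is given below as a description, with no test.

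The series profiled uterine tubes of adult C57BL6 females in estrus, with no transgene and no treatment named in the labels. The distal and proximal parts of each tube were kept apart, tissue from groups of mice was pooled by section, and the pools were digested with collagenase, hyaluronidase, TrypLE and dispase, freed of dead cells and captured with 10x Genomics 3' version 2 chemistry. The libraries were distal 1, 2 and 3 and proximal 2, 3 and 4, numbered as in the sample titles. Each library is thus a pool of mice whose number per pool is not used here, and any p-value measures the spread between pools only.

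The epithelium of the uterine tube is a single layer of ciliated and secretory cells that takes up the ovulated egg and feeds and moves the early embryo. The distal end, next to the ovary, carries most of the ciliated cells, and the proximal end, next to the uterus, is richer in secretory cells. The distal tube is studied as a place where high-grade serous carcinoma begins, and for cells there that can renew the epithelium. Slc6a2 encodes the noradrenaline transporter, which takes noradrenaline back into cells and is best known from sympathetic nerves. Galntl6 belongs to the family of enzymes that start mucin-type O-glycans on proteins, Sprr1a is a small proline-rich protein of the cornified envelope of squamous epithelia, and Kcnip4 is an accessory subunit of Kv4 potassium channels. Msln, listed with these genes as a marker but not used by the rule, encodes mesothelin, a surface glycoprotein of the mesothelium and of several carcinomas.

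The promoters of the genes that mark these cells were read from RefSeq on build GRCm38.p6, which is not the mm39 build of the count files, and windows of 250 bases before the annotated start were searched. Of 21 genes looked up (the 4 rule genes, Msln, and the 16 genes with the highest ratios given further on), 19 had an entry, with 27 windows in all; Slc6a2 and Msln had none. The windows of Sprr1a, of the secreted lectin Reg1 and of Galntl6 are shown. Reg1 had the highest of those 16 ratios. These windows were chosen because 2 of these genes belong to the rule and their windows differ in the number of motif matches. Capitals mark matches, on either strand, to the AP-1 site TGANTCA, to the antioxidant response motif TGACNNNGC or to TATAAA. Each sequence runs 5' to 3' on the strand of its gene, at chr3:92485882-92486131 on the minus strand for Sprr1a, at chr6:78425733-78425982 on the plus strand for Reg1 and at chr8:58911628-58911877 on the minus strand for Galntl6.
Sprr1a: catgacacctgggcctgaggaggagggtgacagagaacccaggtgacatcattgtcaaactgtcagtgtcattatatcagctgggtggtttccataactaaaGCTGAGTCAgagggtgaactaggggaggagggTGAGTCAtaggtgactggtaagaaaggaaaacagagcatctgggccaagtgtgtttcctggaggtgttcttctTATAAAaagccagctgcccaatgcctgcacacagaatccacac
Reg1: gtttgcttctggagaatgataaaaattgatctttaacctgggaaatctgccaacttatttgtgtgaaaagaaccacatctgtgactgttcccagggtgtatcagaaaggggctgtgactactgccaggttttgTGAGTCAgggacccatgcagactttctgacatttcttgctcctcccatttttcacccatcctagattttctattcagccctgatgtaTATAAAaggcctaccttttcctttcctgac
Galntl6: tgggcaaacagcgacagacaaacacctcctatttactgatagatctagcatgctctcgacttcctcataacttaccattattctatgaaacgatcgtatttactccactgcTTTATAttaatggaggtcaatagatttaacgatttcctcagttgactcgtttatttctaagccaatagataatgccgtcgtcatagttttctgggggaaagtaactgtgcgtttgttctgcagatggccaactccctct

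Sprr1a held 2 matches to the AP-1 site, starting at bases 105 and 135 of its window, and 1 match to TATAAA at base 208. Its single match to the antioxidant response motif, at base 103, overlaps the first AP-1 match. Reg1 held 1 AP-1 match at base 134 and 1 TATAAA match at base 221. Galntl6 held 1 TATAAA match on the other strand, at base 112, and no match to the other motifs. Among all 32851 windows of this length, 6.75% held an AP-1 match, 10.2% an antioxidant response match and 12.4% a TATAAA match. AP-1 matches were also found in 1 window of Kcnip4 and in the 3 windows of the secreted epithelial protein dermokine (Dmkn). Of these Dmkn windows, 2 overlap and hold the same site. None of the other windows among the 27 held an AP-1 or antioxidant response match, and 1 window of Limch1 held a TATAAA match. These matches describe letters and not binding.

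Slc6a2 and Galntl6 cells were found almost wholly in the distal section. In distal 1 they were 128 of 1918 non-ciliated epithelial cells (6.67%, exact Clopper-Pearson 95% interval 5.60 to 7.88), in distal 2 they were 21 of 922 (2.28%, 1.42 to 3.46) and in distal 3 they were 125 of 1302 (9.60%, 8.05 to 11.3). Proximal 2 held 1 of 246 (0.407%, 0.0103 to 2.24), proximal 4 held 1 of 143 (0.699%, 0.0177 to 3.83), and proximal 3 held 0 of 80, which allows a share of up to 3.75%. The 3 distal shares lay above the 3 proximal ones, but the section stands in the name of these cells and the difference is no independent result. Distal 2 was the lowest distal library, and its interval did not reach those of distal 1 and 3. Intervals and limits here cover counting error only. With 2 proximal cells in all, gene expression within these cells could not be compared between sections.

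Detection of a few transcripts depends on depth, and these cells were deeper than the other non-ciliated cells. Their median was 11119, 15611 and 11194 UMIs per cell in distal 1, 2 and 3, against 3422.5, 4011 and 5804 in the other non-ciliated cells. Mitochondrial genes took a median of 4.53%, 3.19% and 4.76% of UMIs in the 3 distal libraries, against 1.34%, 0.864% and 4.69% in the other cells. Among distal cells the share of Slc6a2 and Galntl6 cells was 1 of 629 (0.159%) under 2000 UMIs, 24 of 1589 (1.51%) from 2000 to under 5000, 81 of 1085 (7.47%) from 5000 to under 10000, and 168 of 839 (20.02%) from 10000 up. Among proximal cells of at least 5000 UMIs the count was 2 of 91 (2.20%, 0.267 to 7.71), against 249 of 1924 (12.9%, 11.5 to 14.5) in distal cells of that depth. These are counts over pooled cells and no test of the section. By library the distal share at this depth was 14.9%, 5.49% and 14.5% in distal 1, 2 and 3, so distal 2 lay within the proximal interval. Thinned to 1000 UMIs per cell, the rule took 34 distal and 0 proximal cells.

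**Figure D1:**
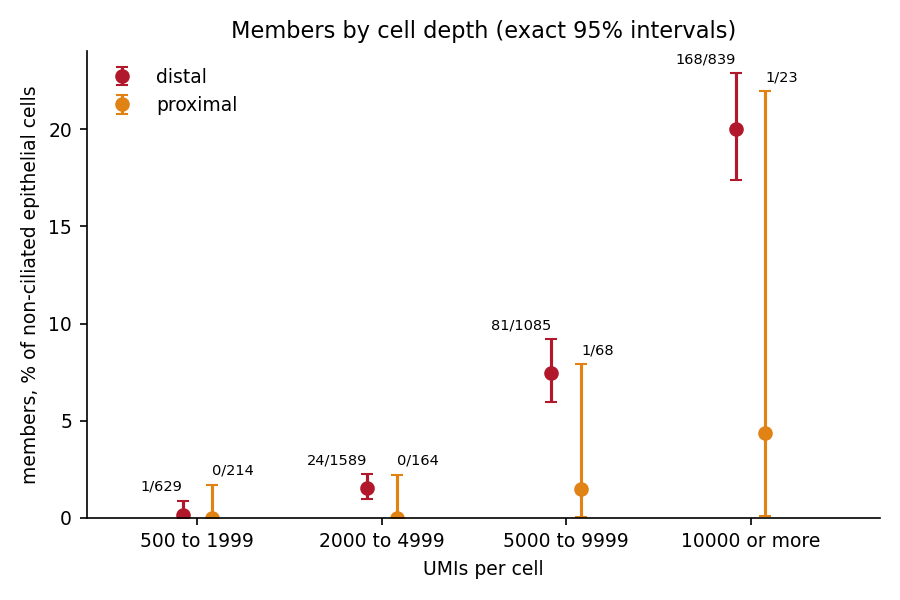
Slc6a2 and Galntl6 cells as a percentage of non-ciliated epithelial cells (y axis) in 4 classes of UMIs per cell (x axis), distal libraries in red and proximal libraries in orange, pooled by section, with exact 95% intervals and the counts beside each point. The distal share climbed from 0.159% in the shallowest class to 20.02% in the deepest, and 1 of 23 proximal cells in the deepest class met the rule.

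The 4 rule genes were seen together less often than singly. Of the 4611 non-ciliated cells, 3636 had none detected, 699 had 1, 201 had 2, 63 had 3 and 12 had all 4. Slc6a2 was detected in 84.4% of the 276 cells, Galntl6 in 54.7%, Kcnip4 in 49.6% and Sprr1a in 42.8%, against 6.27%, 1.66%, 6.07% and 2.12% of the other non-ciliated cells. The commonest exact sets were Slc6a2 with Galntl6 (57 cells), Slc6a2 with Kcnip4 (54) and Slc6a2 with Sprr1a (52). Slc6a2 with Galntl6 occurred in 118 cells in any combination. At the edge of the rule, distal cells with 1 rule gene detected had 87.3 CPM of Slc6a2 and 20.01 CPM of Galntl6 (CPM, the usual scaling to library size, here of UMIs summed over cells), and those with 2 had 225 and 111 CPM. A UMI of Slc6a2 was found in 0.471% of 7212 distal stromal cells, at a median depth of 3498 UMIs, and in 6.98% of the other distal non-ciliated cells, at 4257 UMIs. Thinned to 1000 UMIs these shares were 0.143% and 1.87%, so Slc6a2 in epithelium outside the rule stood above the level in stroma.

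Slc6a2 was even across libraries at 278, 257 and 306 CPM in distal 1, 2 and 3, against 26.5, 21.5 and 25.6 CPM in the other non-ciliated cells of the same libraries. Galntl6 was uneven, at 204, 45.2 and 131 CPM against 7.54, 1.09 and 6.74, with distal 2 the lowest on both sides. Sprr1a stood at 203, 135 and 136 CPM against 20.6, 4.91 and 16.7, and was highest in distal 1. Kcnip4 stood at 296, 135 and 177 CPM against 38.0, 38.7 and 54.6. In each library and for each of the 4 genes the cells that met the rule lay above the others, which the rule itself sets. The 274 distal cells were 6.62% of distal non-ciliated cells and held 12.8% of their UMIs, but 62.9% of the Slc6a2 UMIs, 80.0% of Galntl6, 61.2% of Sprr1a and 43.2% of Kcnip4.

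Msln, the marker outside the rule, was less abundant in these cells than in mesothelium. It stood at 75.4, 84.7 and 122 CPM in distal 1, 2 and 3, against 39.0, 23.6 and 73.7 CPM in the other non-ciliated cells, and was detected in 34.4% against 8.95% of cells. The log2 ratio of CPM + 5 was 1.07 ± 0.51 (SD, n = 3 libraries), and the cells held 23.1% of the Msln UMIs of the distal non-ciliated epithelium. Distal mesothelial cells had 810 CPM of Msln. Of 12 mesothelial markers, Upk3b, Upk1b, Nkain4, Gpm6a and Bnc1 were at 0 UMIs in the Slc6a2 and Galntl6 cells, and the summed level of the list was 1285 to 1628 CPM against 1289 to 1604 CPM in the other non-ciliated cells and 7116 to 7832 CPM in mesothelial cells. No Slc6a2 and Galntl6 cell passed the mesothelial gate.

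Ciliated cells, left out by the rule, also carried these transcripts. Slc6a2 stood at 21.1, 77.2 and 38.6 CPM in ciliated cells of distal 1, 2 and 3, a range that overlapped that of the other non-ciliated cells. Galntl6 stood there at 32.3, 13.6 and 19.4 CPM, above the other non-ciliated cells in each library. The rule took cells with at least 2 rule genes out of the non-ciliated side only, which in part sets this difference. Over all non-ciliated cells, with the scaling of the section fits below, Galntl6 was 35.8, 4.32 and 26.9 CPM. At least 2 of the 4 rule genes were detected in 98 of 1531 distal ciliated cells (6.40%), whose median depth was 21664.5 UMIs, and in 0 of 41 proximal ones, which allows up to 7.32%. Of the 274 distal Slc6a2 and Galntl6 cells, 69.0% had no cilia gene detected, against 78.5% of the other distal non-ciliated cells.

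**Figure D2:**
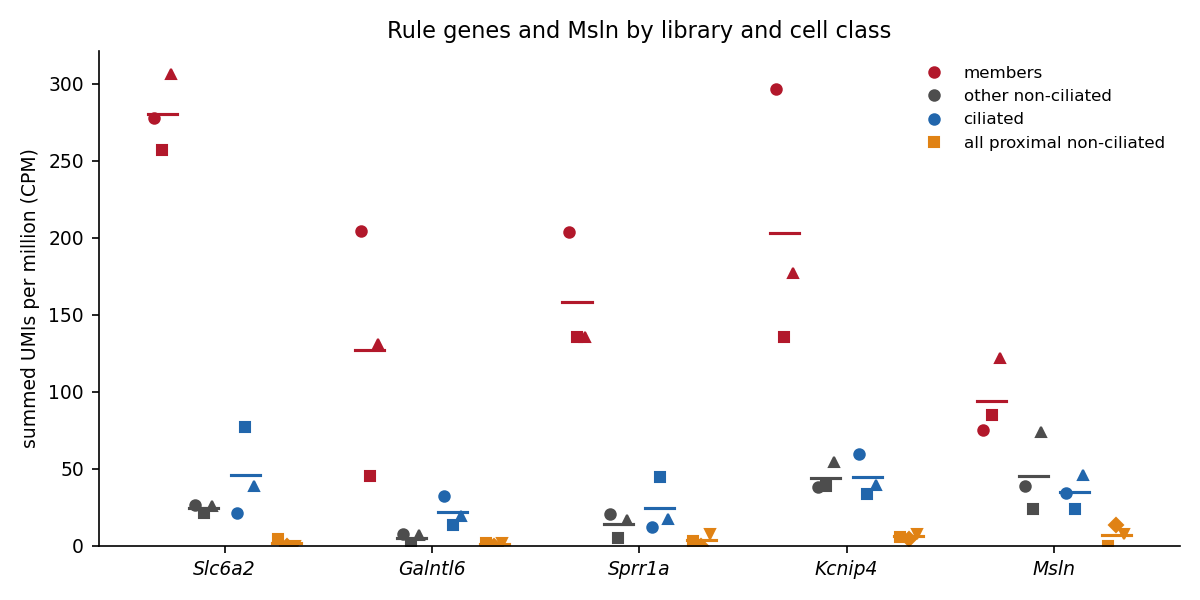
CPM over summed UMIs (y axis) of the 4 rule genes and Msln in Slc6a2 and Galntl6 cells (members, red), other non-ciliated cells (grey) and ciliated cells (blue) of the 3 distal libraries, and in all non-ciliated cells of the 3 proximal libraries (orange); points are libraries, with a circle, square and triangle for distal 1, 2 and 3 and a square, diamond and inverted triangle for proximal 2, 3 and 4, and bars are means. Slc6a2 in the red points lies between 257 and 306 CPM, and Msln between 75.4 and 122 CPM.

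The part of the label that says progenitor was checked against 20 genes used as marks of tubal stem and progenitor cells. The basal cell genes Krt5 and Trp63 were near 0, with 0 and 3 UMIs in all 276 cells. Of the 20 genes, 8 were measured, which means at least 20 CPM on one side in each distal library. Higher means a ratio over 0 in all 3 distal libraries with a mean log2 ratio of at least 0.5, and 11.3% of the 6209 measured genes outside the rule met this (8.23% met the same rule for lower), with a median over all of them of 0.01. By that rule 4 of the 8 were higher and none lower, with a median log2 ratio of 0.41. The 4 were Cd44, a hyaluronan receptor (1.22 ± 0.35), the membrane protein Prom1 (0.71 ± 0.66) and the transcription factors Klf4 (0.64 ± 0.50) and Klf5 (0.58 ± 0.23; all SD, n = 3). Slc1a3, a glutamate transporter used to mark tubal progenitors, stood at 356, 361 and 452 CPM against 485, 365 and 595 CPM, and Sox9 at 142, 147 and 172 against 147, 127 and 212. Slc1a3 was thus below the other cells in each library, and Sox9 in distal 1 and 3. Among cells of at least 5000 UMIs Cd44, Prom1 and Klf5 were still higher, Klf4 no longer met the rule, and Slc1a3 was lower. The label is kept here only as the short name Slc6a2 and Galntl6 cells, which stands for the rule, since 118 of the 276 cells (42.8%) had UMIs of both genes.

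Outside the rule, 704 genes were higher and 511 lower among the 6209 measured. Among cells of at least 5000 UMIs on both sides the counts were 383 (6.17%) and 373 (6.01%). Since the rule selected deep cells and used this contrast, these counts describe the cells and support nothing more. The 16 highest and 8 lowest ratios, among genes of at least 50 CPM on the higher side in each library, are described next by role.

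Secreted proteins and peptides among the 16 are given first. Reg1 stood at 125, 192 and 58.5 CPM in distal 1, 2 and 3 against 21.6, 5.46 and 6.86 CPM in the other non-ciliated cells, a log2 ratio of 2.98 ± 1.09 (SD, n = 3). It came from few cells, with a UMI in 14.1% of them. Qsox1, a sulfhydryl oxidase that forms disulfide bonds in secreted proteins, was the most abundant of the 16 in distal 1, at 612, 361 and 380 CPM against 97.1, 60.0 and 95.5, with a log2 ratio of 2.34 ± 0.35. It was detected in 78.6% of the cells, and they held 44.8% of its distal non-ciliated UMIs. Tac1, the precursor of the neuropeptide substance P, stood at 111, 113 and 97.8 CPM against 24.7, 9.46 and 31.8. Dmkn stood at 155, 183 and 69.8 CPM against 69.3, 16.005 and 26.8, while ciliated cells had 347 to 471 CPM of it. In each of these genes the 3 libraries of the Slc6a2 and Galntl6 cells lay above the other non-ciliated cells of their own library. The choice of the genes required this.

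Genes of oxidant defence, the membrane and the matrix are next. Gpx2, a glutathione peroxidase of epithelia, stood at 282, 282 and 150 CPM against 65.0, 53.5 and 45.4, a log2 ratio of 1.99 ± 0.34. Anpep, the membrane aminopeptidase N, stood at 117, 62.1 and 112 CPM against 31.9, 10.9 and 34.8. The transmembrane collagen Col25a1 stood at 235, 522 and 275 CPM against 59.3, 108 and 102, and was highest in distal 2. Thsd4, a matrix protein that binds fibrillin, had a log2 ratio of 1.97 ± 1.00, the membrane protein Tmem213 1.52 ± 0.73 and the membrane protein Lsmem1 1.88 ± 0.72.

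Signalling and cytoskeletal genes made up the rest of the 16. The cyclic nucleotide phosphodiesterases Pde10a and Pde4d had log2 ratios of 1.96 ± 0.37 and 1.71 ± 0.82. Chrm3, the muscarinic M3 acetylcholine receptor, stood at 148, 138 and 124 CPM against 43.0, 22.2 and 66.1 CPM. Limch1, a regulator of actomyosin, stood at 118, 121 and 125 CPM against 35.1, 15.1 and 32.1. Osbpl6, an oxysterol-binding protein relative, and the adaptor Sh3d19 had log2 ratios of 1.72 ± 0.52 and 1.54 ± 0.33.

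The 8 lowest ratios included marks of other secretory cells. The calcium-binding protein S100b stood at 18.2, 113 and 22.0 CPM in distal 1, 2 and 3 against 300, 1484 and 78.0 CPM, a log2 ratio of -3.00 ± 1.19, and distal 2 was the highest library on both sides. The uroplakin Upk1a stood at 118, 291 and 170 CPM against 999.9, 1456 and 396, and the secreted peptide precursor Ecrg4 at 520, 694 and 670 CPM against 2728, 2770 and 2031. Lgals1, galectin-1, stood at 388, 212 and 424 CPM against 938, 968 and 999. Abhd11os, Tmem269, the elongation factor Tcea3 and the reticulon Rtn1 had log2 ratios from -2.35 to -1.52. In each of the 8 the Slc6a2 and Galntl6 cells lay below the other cells of their own library, which the choice of these genes required. Among cells of at least 5000 UMIs the 24 ratios kept their signs, with Reg1 at 2.98, Qsox1 at 2.31 and S100b at -2.58. That cut kept 249 of the 274 distal Slc6a2 and Galntl6 cells. Above it their share still climbed with depth, from 7.47% under 10000 UMIs to 20.02% from there up. The cut thus did not match depth, and kept signs of genes picked for extreme ratios add no support.

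**Figure D3:**
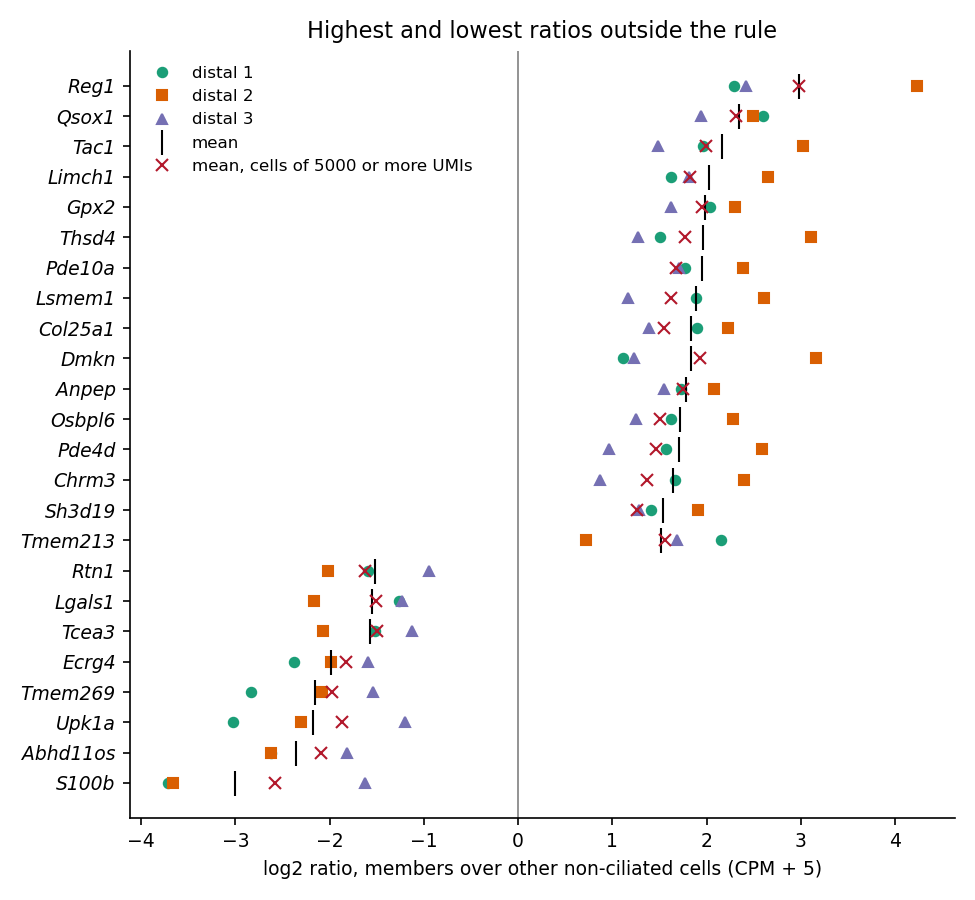
Log2 ratio of CPM + 5 in Slc6a2 and Galntl6 cells (members) over other non-ciliated cells (x axis) for the 16 genes with the highest and the 8 with the lowest mean ratio outside the rule (y axis); coloured points are distal 1, 2 and 3, the black bar is their mean and the red cross the mean among cells of at least 5000 UMIs. Genes shown were required to have 1 sign in all 3 libraries and at least 50 CPM on the higher side in each, and haemoglobin genes were not eligible. Among those shown Reg1 is the highest at 2.98 and S100b the lowest at -3.00.

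For most of the named genes, cells with 1 rule gene lay between those with none and those that met the rule. Qsox1 over the distal libraries was 56.9 CPM in cells with no rule gene detected, 165 with 1, 349 with 2 and 794 with 3 or 4. Gpx2 went from 47.3 to 75.8, 191 and 300 CPM over the same classes, and Reg1 from 10.8 to 17.1, 71.3 and 176. Ecrg4 went the other way, from 2925 CPM to 1425, 809 and 132, and Upk1a from 1117 to 355, 193 and 80.0. S100b was 656, 129, 38.8 and 8.78 CPM. The order held in each distal library for Qsox1, Ecrg4, Upk1a and S100b. Dmkn did not keep the order, at 24.6, 84.8, 75.9 and 223 CPM, nor did Tac1 and Msln, which were lower with 3 or 4 genes than with 2, and Reg1 in distal 3 was 6.95 CPM with none and 6.70 with 1. The class of 3 or 4 genes held 75 cells, of which 4 came from distal 2. Depth differed between the classes. Over non-ciliated cells of both sections the median was 3495.5 UMIs with no rule gene, 8500 with 1 and 10833 with 2. It was 12796 with 3 and 12447.5 with 4. The part of depth in these orders was not tested.

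**Figure D4:**
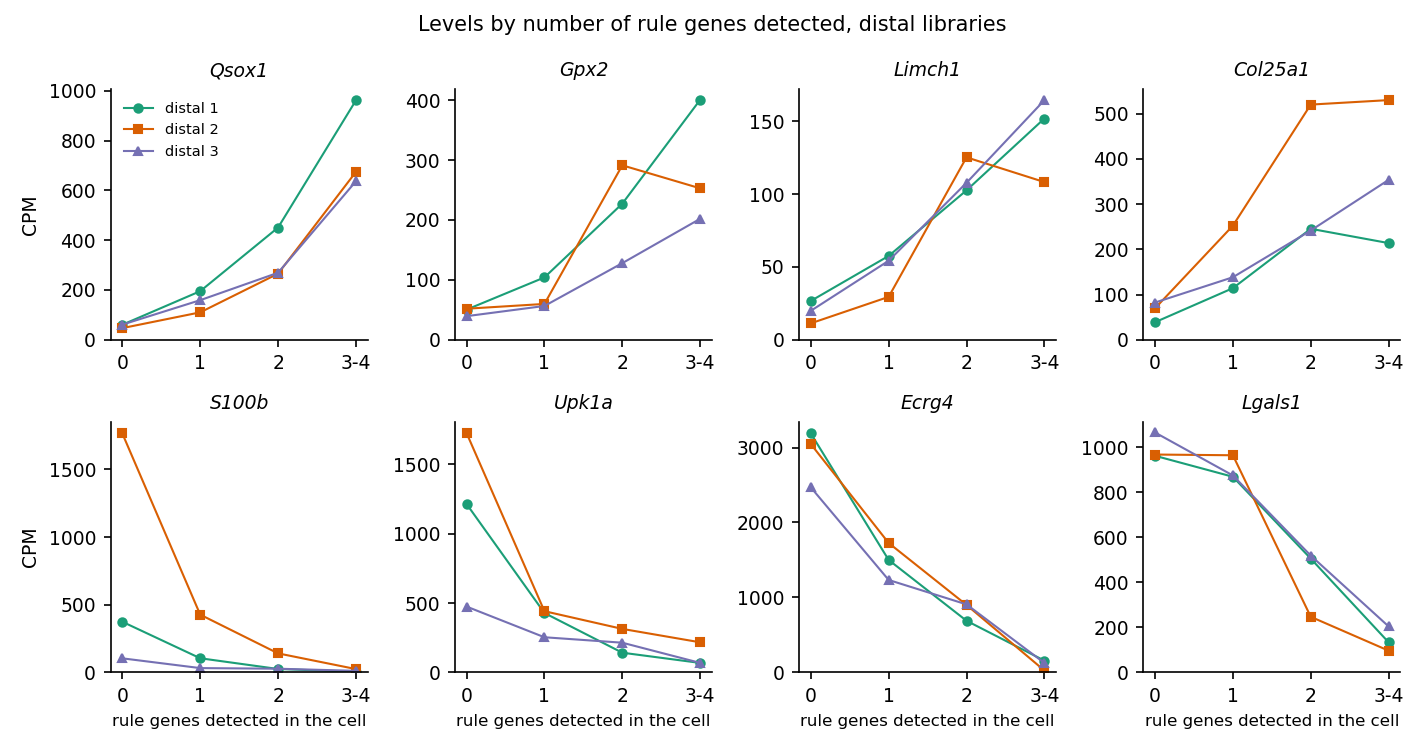
CPM (y axis, linear, a scale for each panel) of 4 genes with high and 4 with low ratios in distal non-ciliated cells grouped by the number of rule genes detected in the cell (x axis), with a line for each of distal 1, 2 and 3. Qsox1 climbs in each library and Ecrg4 falls in each, while Gpx2 and Limch1 in distal 2 are lower in the last class, which holds 4 cells there, than in the one before. Col25a1 in distal 1 is also lower in the last class, which holds 39 cells there, at 214 CPM against 245 CPM.

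The genes were also counted by groups of known function, with no test of any group. The counts that follow use the higher and lower rules given above and are to be read beside 11.3% and 8.23% of all measured genes. Of 20 secretory products, 16 were measured, of which 3 were higher and 5 lower (median -0.37). The higher ones were Wfdc1, a secreted protease inhibitor relative (1.34), the lung surfactant lectin Sftpd (0.76) and Gsto1 (0.52). The lower ones were Spp1, osteopontin (-3.51), S100b, Upk1a, Wfdc2 (-1.07) and Ovgp1, the oviduct glycoprotein (-0.62). Ovgp1 was nonetheless abundant at 11765, 10982 and 9535 CPM, against 19167, 18551 and 12586 CPM. Of 18 Müllerian epithelial factors, 9 were measured. The tubal transcription factors Pax2 and Sox17 were lower (-1.36 and -0.92), and Pax8 stood at 114, 251 and 216 CPM against 193, 245 and 282. Nr2f1 was higher (0.63). Ovgp1 and Nr2f1 no longer met the rules among cells of at least 5000 UMIs, where Pax8 was lower.

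Most genes in the lists nearest to the functions of the rule genes were under the level needed to be measured. Of 24 genes of noradrenaline and acetylcholine signalling, 3 were measured, among them Chrm3, which was higher, and Maoa, which degrades monoamines and was lower (-0.66). Th, which makes the precursor of noradrenaline, and the vesicular transporter Slc18a2 had 0 UMIs in the cells, as had the receptors Adra1d, Adrb1 and Chrm2. Of 11 Kv4 channel genes, Kcne3 alone was measured, and it was lower (-0.56). Kcnd3, a Kv4 pore subunit, stood at 20.8, 19.8 and 30.6 CPM against 15.3, 9.64 and 24.6. Of 24 genes of mucin-type O-glycosylation, 11 were measured, with Galnt7 higher (0.64) and Galnt11 (-0.79) and Galnt12 (-0.52) lower. Of 24 cornified and squamous genes, 2 were measured and both were higher, the cell cycle regulator Sfn (0.80 ± 0.80) and annexin Anxa1 (0.72 ± 0.11), while 12 had no UMI in the cells. Kcne3 and Galnt12 no longer met the rule for lower among cells of at least 5000 UMIs.

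Adhesion and matrix genes that were measured were higher or met neither rule. Of 20 simple epithelial keratin and adhesion genes, 13 were measured, 6 were higher and none lower (median 0.37). These were the desmosomal plaque protein Dsp (1.14), the tight junction genes Cldn4 (0.96), Ocln (0.70), Cgn (0.60) and Tjp1 (0.59), and E-cadherin, Cdh1 (0.66), at 1027, 875 and 1092 CPM against 684, 392 and 928. Of 24 basement membrane and integrin genes, 11 were measured, 6 were higher and none lower (median 0.51), among them the laminin chain Lama3 (1.07), the integrins Itgav (1.00), Itgb6 (0.94) and Itgb1 (0.64), and Itgb4. Among cells of at least 5000 UMIs 3 adhesion genes (Ocln, Cldn4 and Dsp) and 4 basement membrane and integrin genes (Lama3, Itgav, Itgb6 and Itgb1) were still higher, and none were lower.

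Signalling genes were counted in the same way. Of 29 growth factor genes, 11 were measured. The receptors Met (0.81) and Egfr (0.72) and the ligand Hbegf (0.62) were higher and Erbb2 was lower (-0.72), but Hbegf no longer met the rule among cells of at least 5000 UMIs, where Erbb4 was lower. Of 31 Wnt genes, 9 were measured, and the receptors Fzd6 (-1.11) and Fzd3 (-0.51) were lower, Fzd3 not among cells of at least 5000 UMIs. Of 19 Notch genes, 8 were measured, with the receptor Notch3 higher (0.65). Of 24 BMP, TGF-beta and Id genes, 13 were measured, with the receptors Tgfbr2 (0.78) and Acvr1 (0.61) and Smad3 (0.51) higher and Id4 (-0.86) and Id2 (-0.63) lower. Among cells of at least 5000 UMIs none of the 3 higher BMP and TGF-beta genes met the rule, and Id4 and Id2 were still lower. Of 18 steroid genes, 8 were measured, and 2 were higher, among them Hsd17b2 (0.78), an enzyme that inactivates oestradiol. The oestrogen receptor Esr1 was among the measured genes that met neither rule (0.38 ± 0.48).

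Immediate early and stress genes, which respond to tissue handling as well as to signals, were counted as 1 list and measured in 23 of 26 cases. Of these 7 were higher and Ddit3 was lower (median 0.44), but 2 were higher and 2 lower among cells of at least 5000 UMIs. Egr3 (1.06) and Fosl1 (0.94), a partner in AP-1, were higher in both comparisons. Of 21 cell cycle genes, 2 were measured, Ccnd1 higher (0.55 ± 0.11) and Ccnd3 at 0.46, while genes of DNA replication and mitosis were under the level needed. Of 22 tumour suppressor and serous carcinoma genes, 10 were measured, with Msln higher and Lpar3 lower (-0.51, though not among cells of at least 5000 UMIs), and of 16 genes of multiciliogenesis only E2f5 was measured (-0.22).

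Markers of other cell types were summed in the Slc6a2 and Galntl6 cells. Leukocyte genes summed to 5.32 to 8.47 CPM over the 3 distal libraries, against 49.8 to 62.6 CPM in the other non-ciliated cells, with 6 of 10 at 0, Ptprc among them. Nerve and Schwann genes summed to 25.3 to 113 CPM against 89.1 to 1491 CPM, with S100b the one measured gene among them, and Sox10, Stmn2 and Snap25 were at 0. Fibroblast genes summed to 89.0 to 208 CPM, in a range that overlapped the 122 to 132 CPM of the other cells. Smooth muscle genes summed to 42.3 to 220 CPM against 102 to 541 CPM, lymphatic endothelial genes to 394 to 479 CPM against 463 to 629 CPM, and pericyte genes, among them Notch3, to 31.0 to 51.3 CPM against 11.6 to 36.5 CPM. Ciliated genes summed to 53.6 to 103 CPM against 120 to 186 CPM. Haemoglobin and other erythroid genes summed to 39.0 to 90.3 CPM against 2527 to 8052 CPM, and 40 of the 3868 other distal cells held 96.2% of the haemoglobin UMIs on that side. The part of any of these in the ratios above was not tested. Of the 274 distal cells, 7 were among the highest-scoring doublets.

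The Slc6a2 and Galntl6 cells did not form 1 cluster. The 6183 epithelial cells were clustered without the rule genes, the gate genes and Msln, and 3 of 20 clusters held 248 of the 276 cells. Cluster 11 held 112 (40.6%), cluster 4 held 84 (30.4%) and cluster 9 held 52 (18.8%). By library, cluster 11 took 64 of 128 in distal 1, 10 of 21 in distal 2 and 38 of 125 in distal 3. Cluster 4 took 35, 5 and 44 of them, and cluster 9 took 20, 4 and 28. The same 3 clusters held 22.1% of the other non-ciliated cells, and cells that met the rule were the majority in cluster 11 alone, at 112 of 214 cells. The clusters were made from variable genes of these same cells, so the genes that part them are a description.

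The leading genes of these cells differed between the 3 clusters. In cluster 11 they were led by Tmem213, Tspan8, Gpx2, Oit1, Adh1 and Qsox1. Qsox1 was 861 CPM there, 442 CPM in cluster 4 and 73.8 CPM in cluster 9. In cluster 4 they were led by the imprinted non-coding RNAs Meg3 and Rian, the growth factor binding protein Igfbp3, Msln and the copper carrier Cp, with Msln at 239 CPM against 67.1 in cluster 11 and 22.3 in cluster 9. In cluster 9 they were led by the secreted Dcpp1, Dcpp2 and Dcpp3, Ecrg4, Mapk10, Guca2b and Hdc, which makes histamine. Dcpp genes are near-identical copies among which reads can be split, so their separate levels are uncertain. Ecrg4 was 59.7 CPM in cluster 11, 59.7 in cluster 4 and 1457 in cluster 9. These levels were not particular to the cells that met the rule. Their non-ciliated neighbours had Msln at 76.1, 214 and 11.7 CPM in clusters 11, 4 and 9, and Ecrg4 at 126, 162 and 1939 CPM. The log2 ratio of Msln over these neighbours was -0.13, 0.14 and 0.59 (means of distal 1 and 3). Slc6a2 was present in each at 380, 311 and 168 CPM in clusters 11, 4 and 9, whereas Galntl6 was 247, 187 and 10.5 CPM.

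In the genes with high and low ratios, the cells that met the rule were nearer within a cluster to their neighbours that did not. These genes were picked for extreme ratios over all clusters and were not kept out of the clustering. Smaller ratios within a cluster are thus in part set by these choices and are a description. Over the 16 genes with high ratios the median log2 ratio was 1.86 against all other non-ciliated cells, and 0.53, 0.71 and 0.23 against the non-ciliated neighbours in clusters 11, 4 and 9 (means of distal 1 and 3, the libraries with at least 20 such cells in each cluster). In both libraries 12 of the 16 were higher in cluster 11, 13 in cluster 4 and 7 in cluster 9. Over the 8 genes with low ratios the median was -2.07 against all other cells and -0.40, -0.42 and -0.27 within the clusters, with 3, 4 and 4 of 8 lower in both libraries. Ratios within clusters were taken for the named genes only. The counts of 16 and of 8 thus have no share over all genes beside them and are no result about these genes. Qsox1 in cluster 11 stood at 861 CPM in the cells that met the rule and 605 CPM in the 97 that did not. Galntl6, by rule, stood at 247 and 52.0 CPM.

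**Figure D5:**
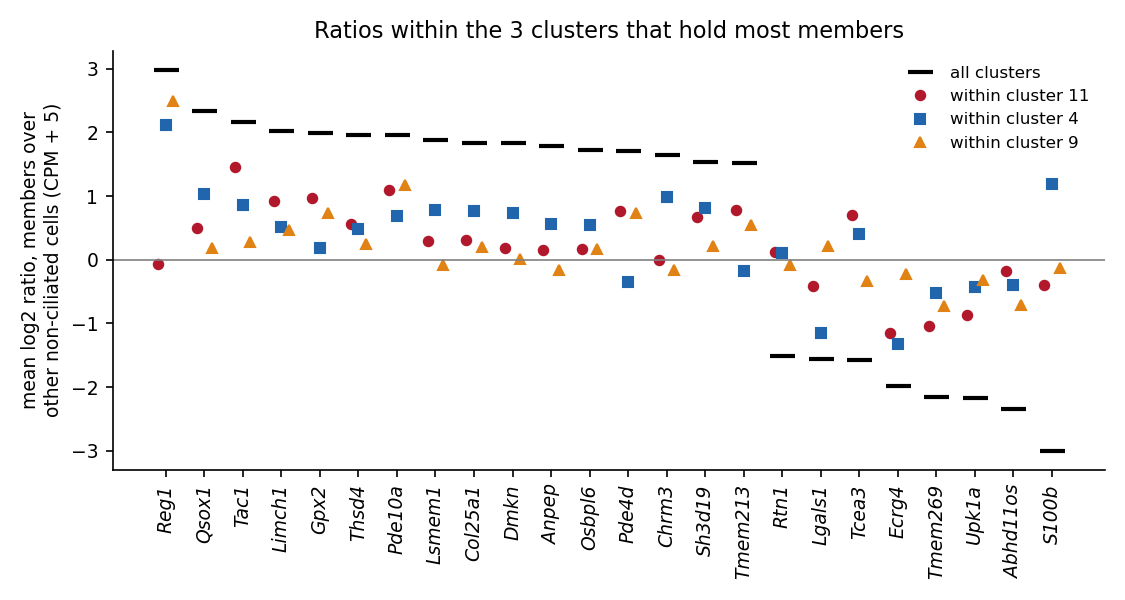
Mean log2 ratio of CPM + 5 (y axis) in Slc6a2 and Galntl6 cells (members) over other non-ciliated cells for the 24 named genes (x axis), over all clusters (black bars, distal 1 to 3) and within cluster 11, 4 or 9 (red circles, blue squares and orange triangles, distal 1 and 3). The medians of the 16 higher genes within the clusters are 0.53, 0.71 and 0.23, against 1.86 over all clusters.

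The 3 distal libraries differed within these cells. Dcpp3 stood at 11089, 203 and 2727 CPM in distal 1, 2 and 3, while in the other non-ciliated cells it stood at 6416, 4644 and 5268. Dcpp1 and Dcpp2 were at 0 UMIs in the 21 cells of distal 2. Igfbp3 was 28.6, 2.82 and 138 CPM, with a like order of libraries in the other cells, at 23.5, 7.09 and 63.2. There is 1 library for each value, so these differences have no replicate check. Barcode sequences shared between 2 libraries numbered from 0 to 58 a pair, and none met the rule in both.

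Section differences of the named genes were examined by testing proximal against distal non-ciliated sums with and without the Slc6a2 and Galntl6 cells. The test was the edgeR quasi-likelihood test, with a Benjamini-Hochberg adjusted p under 0.05 over all genes. The sums held 5852604 to 11082365 UMIs in distal and 220650 to 685332 UMIs in proximal libraries, so levels of a few CPM rest on single proximal UMIs. With all cells, 312 of 12791 genes differed (2.44%), 69 lower in proximal (0.539%) and 243 higher (1.9%). With the cells left out, 235 of 12671 differed (1.85%), 43 lower (0.339%) and 192 higher (1.52%). Levels below are CPM scaled by trimmed mean of M values, as fitted.

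The rule genes and Msln were low in the proximal section, which is a description since the section is in the label. Slc6a2 stood at 63.0, 41.0 and 71.2 CPM in distal 1, 2 and 3 and at 5.13, 0 and 0 in proximal 2, 3 and 4, with 3 proximal UMIs in all. The pooled proximal to distal ratio was 0.0327 (95% counting interval 0.00673 to 0.0957). With the cells left out Slc6a2 was still 27.3, 24.8 and 26.0 CPM in distal libraries against 3.53, 0 and 0, a ratio of 0.0521 (0.0063 to 0.189) on 2 proximal UMIs. Kcnip4 stood at 39.1, 44.7 and 55.6 CPM against 1.77, 3.90 and 6.74 with the cells left out. Galntl6 had 132 distal UMIs and 1 proximal UMI outside the cells, too few to be tested. For Slc6a2 and Kcnip4 the distal libraries lay above the proximal ones also outside the cells.

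Of the 24 genes named outside the rule, 4 differed between sections with all cells in the fit. All 24 had been picked by levels and ratios in the distal libraries alone. Qsox1, Pde10a and Chrm3 were picked for being high in distal Slc6a2 and Galntl6 cells, which the distal sums of this fit include. Their adjusted p-values with all cells are thus a description and no independent test of the section. Qsox1 stood at 173, 89.8 and 143 CPM in distal 1, 2 and 3 and at 23.9, 7.82 and 30.8 CPM in proximal 2, 3 and 4, with a log2 fold change of -2.59 ± 0.50 (SE, edgeR adjusted p = 0.0334). With the cells left out the fold change was -2.03 ± 0.46 (edgeR adjusted p = 0.0583), and whether the 2 fits differ was not tested. Pde10a stood at 71.8, 38.4 and 48.0 CPM against 3.42, 3.91 and 5.36, with a fold change of -3.59 ± 0.51 (edgeR adjusted p = 0.0118), and of -3.12 ± 0.51 (edgeR adjusted p = 0.0245) with the cells left out. Chrm3 stood at 59.0, 33.5 and 76.8 CPM against 0, 3.91 and 4.02, on 4 proximal UMIs, with a fold change of -4.48 ± 0.71 (edgeR adjusted p = 0.0192), and of -4.15 ± 0.75 (edgeR adjusted p = 0.0292) without the cells. Rtn1, low in these cells, was higher in the proximal section, at 193, 802 and 537 CPM against 78.1, 104 and 68.0, with a fold change of 2.61 ± 0.57 (edgeR adjusted p = 0.0454), and 2.49 ± 0.57 (edgeR adjusted p = 0.0583) without the cells. The section differences of Pde10a and Chrm3 thus also passed the test with the cells left out. The cells kept in that fit still held 686 distal and 13 proximal cells with 1 rule gene detected. In summed UMIs such distal cells had 74.0 CPM of Chrm3 and 60.3 of Pde10a, against 34.9 and 30.2 with none detected. The fit therefore cannot place the difference in epithelium with no rule gene. Distal and proximal libraries did not overlap for any of the 4 genes, which adds no support since these were picked for passing the test.

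Most of the libraries were needed for these calls. Leaving out distal 1, 2 or 3 or proximal 3 ended each of the 4 calls, with adjusted p up to 0.0988 for Pde10a, 0.113 for Chrm3, 0.189 for Qsox1 and 0.247 for Rtn1, while the fold changes kept their signs (Pde10a from -3.95 to -3.27, Qsox1 from -3.02 to -2.35). Without proximal 4 Pde10a and Chrm3 stayed called with all cells in the fit (edgeR adjusted p = 0.0413 and 0.0434) but not with the Slc6a2 and Galntl6 cells left out (0.0556 and 0.0608), and Qsox1 (edgeR adjusted p = 0.0629) and Rtn1 (0.110) did not; without proximal 2 all 4 were called. Other named genes did not pass, among them Gpx2 (log2 fold change -1.92 ± 0.47, edgeR adjusted p = 0.0643 with all cells and 0.141 without the Slc6a2 and Galntl6 cells) and Tac1 (-1.63 ± 0.75, adjusted p = 0.329). Several of them were called under some alternatives, as Thsd4 in 6 of 12 (edgeR adjusted p = 0.106 in the fit reported, and from 0.00011 to 0.402 over the alternatives, DESeq2 included), Osbpl6 in 6 of 13, and Gpx2 and Col25a1 in 5 of 13 each. Anpep, although high in the cells, was at 30.8, 62.6 and 87.0 CPM in proximal libraries against 44.8, 16.1 and 47.9 in distal ones (log2 fold change 0.73 ± 0.52, edgeR adjusted p = 0.553).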

How the data were processed

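The 6 droplet libraries, 3 distal and 3 proximal, were analysed from the deposited 10x matrices, which hold raw UMI counts per gene and cell made by the authors with Cell Ranger 7.0.0 per the file headers, although the submitters' processing notes name version 6.1.2 and build mm39. Whether intronic reads were counted is not given in the sources used here. The rule and lists were chosen with earlier results of these data known. Named genes were the rule genes, Msln, the 16 highest and 8 lowest mean log2 ratios of CPM + 5 with 1 sign in 3 distal libraries and at least 50 CPM on the higher side, and up to 4 genes of the largest ratio per list. Not eligible among these 24 were haemoglobin, ribosomal and mitochondrial genes and those lacking a symbol of their own. Doublets were scored with Scrublet in scanpy 1.11.5 at 0.8% per 1000 barcodes and kept. Clustering used 2000 variable genes, 20 principal components, 15 neighbours and Leiden resolution 1. Section tests used edgeR 4.0.16 on summed counts (filterByExpr, trimmed mean of M values), with DESeq2 1.42.0 as an alternative. The fit was tested on simulated data. Thinning drew 1000 UMIs a cell, without shallower cells. Some genes counted in the lists are not reported here by name.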

Additional observations from a re-analysis of the deposited data

How the results depend on the processing

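The mean distal share of 6.18% became 1.64% with at least 3 rule genes, 0.899% in cells thinned to 1000 UMIs, 2.48% without Slc6a2 in the rule and 11.6% among cells of at least 5000 UMIs, an alternative chosen after seeing the data; without another rule gene it was 4.25% to 4.60%. The count of genes past the ratio rule, 1215, became 2365 with means over cells, 2007 in thinned cells (935 higher, 1072 lower), 756 among cells of at least 5000 UMIs and 786 to 1945 when 1 distal library was left out (786 without distal 2, 1945 without distal 3). At least 3 rule genes gave 737 higher and 973 lower. The share of these cells in their leading cluster went from 40.6% to 71.0% at resolution 0.5. The cause of these shifts was not tested.

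The section calls with all cells, 312, became 967 with DESeq2, 1214 with no filter on low counts (643 higher, 571 lower in proximal) and 48 when distal sums were thinned to the proximal ones, and without the Slc6a2 and Galntl6 cells, 235, they became 871, 1104 and 32. Leaving out 1 library gave 4 to 2847 and 3 to 2756 calls. It gave 2847 and 2756 without proximal 2, 133 and 121 without proximal 4, and at most 12 without any other library, with 0 genes lower in proximal there. At an unadjusted p under 0.05 by edgeR those fits had 780 to 1862 genes. Titles and descriptions give the same number to each library except distal 3, which is number 4 in its description. The deviations of distal 2 and proximal 2 from their section means correlated at 0.68 across genes. Those of distal 3 and proximal 4, which share a description number, correlated at 0.51. Those of distal 3 and proximal 3, which share a title number, correlated at 0.44. A replicate block by title number gave 584 and 533 calls, by description number 483 and 452, and for number 2 alone, added after seeing the data, 1408 and 1294.

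The named genes Sh3d19, S100b, Upk1a and Reg1, which did not pass in either fit, turned sign. With all cells, Sh3d19 (-0.06) was 0.15 with total counts, 0.14 with thinned sums and -0.48 to 0.31 with 1 library left out; S100b (0.03) was -0.17 with no filter, -0.90 with the title block, -0.62 with the block for number 2 and -3.05 to 1.94 with 1 library left out; and Upk1a (-0.23) was 0.13 with the description block and -1.58 to 0.35 with 1 library left out. Without the Slc6a2 and Galntl6 cells, S100b (-0.11) was 0.43 with the description block and -3.15 to 1.71 with 1 library left out, Upk1a (-0.35) 0.013 and -1.71 to 0.17, Sh3d19 (0.20) -0.30 with the title block, -0.24 with the description block and -0.26 to 0.63 with 1 library left out, and Reg1 (-0.79) 0.35 and 0.32 with those blocks. Proximal depth limits all section results: a level of 3.91 CPM in proximal 3 is 1 UMI.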

Other observations

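S100b, low in the Slc6a2 and Galntl6 cells, was highest in the 2 libraries numbered 2. In all non-ciliated cells it stood at 1608 CPM in distal 2 and 1836 CPM in proximal 2, against 268 and 70.4 CPM in distal 1 and 3 and 7.82 and 138 CPM in proximal 3 and 4. The ligand Areg was too low to be counted as measured, but stood at 28.6, 5.64 and 11.3 CPM in the Slc6a2 and Galntl6 cells of distal 1, 2 and 3 against 1.78, 0.546 and 2.74 CPM in the other non-ciliated cells, and Myc stood at 29.9, 16.9 and 29.9 CPM against 12.9, 4.55 and 16.7 CPM. Both genes were singled out after their values were seen.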
